A study of Mus musculus with 13 samples.

Results

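The genes described here are Tet1, Tet2 and Tet3, the 3 dioxygenase genes of the TET family, and Tdg, the gene of thymine DNA glycosylase. They were chosen by name, and all 4 of them were found among the 23217 genes of the deposited table and passed the filter on low values. TET enzymes use iron and 2-oxoglutarate to oxidize the methyl group of methylated cytosine in steps. Thymine DNA glycosylase cuts out the most oxidized products, which base excision repair then replaces with unmethylated cytosine. In the mouse, Tet1 is known for its expression in pluripotent cells and germ cells, Tet3 for its role in the zygote, and Tdg is needed for development to birth.

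Polyadenylated RNA was sequenced from 13 whole mouse embryos of embryonic day 9.5 on a C57BL/6J background, 10 labelled xHomo and 3 labelled xHet. The labels do not spell out these names and state neither the allele nor the parents. Background knowledge of the study, not the labels, gives the fathers as homozygous (xHomo) or heterozygous (xHet) for a Tet1 mutation. The genotype of each embryo itself is not given. Levels are in FPKM, that is, fragments scaled to transcript length and to the mapped total of the library, with unknown read depth. Summed FPKM ran from 500126 to 662936 in xHomo embryos and from 543948 to 570161 in xHet embryos.

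The libraries were checked for sex, tissue and quality before the members were compared. Xist, transcribed from the inactive X chromosome, was 30.5 to 158.8 FPKM in xHomo embryos 2, 3, 7, 9 and 10 and at most 0.1 FPKM in the other 5 xHomo embryos and all 3 xHet embryos. The Y-linked gene Eif2s3y was 26.2 to 37.9 FPKM in the Xist-low and at most 0.04 FPKM in the Xist-high embryos, so the xHet group held no embryo with the Xist-high pattern. Markers of the embryo's own regions were all in the table, and their sum was 164.9 to 244.95 FPKM in xHomo embryos and 225.9 to 236.8 FPKM in xHet embryos. Of 6 trophoblast markers, which sum to at most 13.45 FPKM, Tpbpa, Gcm1 and Psg17 were under 0.5 FPKM in every embryo. Of 3 decidual markers, Prl8a2 and Prl3c1 were under 0.5 FPKM in every embryo and Cryab was not. The sum of these 3 was 5.27 to 9.95 FPKM in xHomo embryos and 5.67 to 7.9 FPKM in xHet embryos. Summed red cell genes ranged over 4136–12601 FPKM in xHomo embryos, against 8355–8592 FPKM in the xHet group. Summed yolk sac and liver endoderm genes ranged over 10.1–65.9 FPKM in xHomo embryos, against 29.6–41.6 FPKM in the xHet group. Germ cell and pluripotency genes summed to 3.38 to 8.63 FPKM in xHomo embryos and 5.56 to 6.62 FPKM in xHet embryos, with Dppa3, Prdm14 and Dazl under 0.5 FPKM in every embryo. The part of these mixtures in the results below was not tested, and in whole embryos fewer cells of a type and less RNA per cell cannot be told apart. The library of xHomo embryo 3 stood apart. In it 10.2% of tested genes were off the mean of the xHet embryos by 1 log2 unit or more. This share was 1.45% to 4.56% in the other xHomo embryos. In xHet embryos, which are part of that mean and so lie nearer to it, the share was at most 0.956%. Group differences of the members are given with and without xHomo embryo 3.

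A copy shares most of the coding sequence of Tdg, so that sequence is shown before the values. The longest coding transcript of Tdg has 3502 bases, and its bases outside the coding sequence were not compared. Gm9855, annotated as a processed pseudogene on chromosome 10, matched the coding sequence of Tdg over 1194 of 1194 bases with 9 mismatches and no gap, an identity of 99.2%, and its longest run without a mismatch was 756 bases. The deposited table gives Tdg and Gm9855 the same locus (chr10:82092582-82153395, mm9), which also holds Glt8d2, while the GENCODE annotation on GRCm38 places Gm9855 elsewhere on that chromosome. A further copy, Tdg-ps on chromosome 15, matched the same 1194 bases with 14 mismatches and is not a row of the table. The stretch from coding base 855 to 1094, counted from 1 at the start codon, holds 7 of the 9 differences between Tdg and Gm9855, and capitals mark them in these GENCODE transcript sequences.
Tdg: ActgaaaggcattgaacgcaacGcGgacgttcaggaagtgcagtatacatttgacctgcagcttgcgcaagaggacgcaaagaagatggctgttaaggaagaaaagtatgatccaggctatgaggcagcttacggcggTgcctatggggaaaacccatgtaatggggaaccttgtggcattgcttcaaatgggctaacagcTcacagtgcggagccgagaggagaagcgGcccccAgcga
Gm9855: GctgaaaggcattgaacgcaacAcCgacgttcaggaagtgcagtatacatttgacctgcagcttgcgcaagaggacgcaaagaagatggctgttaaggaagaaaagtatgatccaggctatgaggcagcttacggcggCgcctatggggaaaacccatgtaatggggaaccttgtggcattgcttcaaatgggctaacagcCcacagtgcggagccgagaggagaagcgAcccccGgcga
Written with the base of Tdg before the position and that of Gm9855 after it, the 9 substitutions were A98C, A855G, G877A, G879C, T993C, T1056C, G1084A, A1090G and G1101A. A fragment of coding sequence that covers none of these positions is the same in both genes.

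Among the TET genes, Tet2 differed from the rest in the bases before its start. The 250 bases upstream of the RefSeq start of Tet2 (GRCm38.p6, chr3:133544391-133544640, minus strand) held 51 CG pairs, shown in capitals because CG pairs are the main site of cytosine methylation.
Tet2: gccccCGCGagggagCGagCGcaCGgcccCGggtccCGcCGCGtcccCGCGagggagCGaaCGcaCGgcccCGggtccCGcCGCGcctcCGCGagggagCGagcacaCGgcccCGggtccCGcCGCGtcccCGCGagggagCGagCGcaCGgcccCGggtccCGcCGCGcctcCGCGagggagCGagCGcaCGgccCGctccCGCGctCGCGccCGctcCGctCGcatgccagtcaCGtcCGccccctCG
At least as many CG pairs, read as the letters CG on the strand of the gene (the same count on both strands), stood in 0.0670% of the 32851 start windows of the RefSeq table, whose median was 6. Tet1, Tet3 and Tdg had 15, 17 and 19 CG pairs in windows of the same length, counts that 27.3%, 23.5% and 19.7% of all windows reach. Methylation was not measured in these samples.

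Tet1 (chr10:62267317-62342762, mm9) was the lowest of the TET genes and did not differ between the groups beyond the spread among embryos. It was 1.11 FPKM at the lowest, 2.10 at the median and 2.87 at the highest of the 10 xHomo embryos, against 2.61, 1.93 and 2.51 FPKM in xHet embryos 1 to 3. The groups overlapped, with 3 xHomo embryos above, 3 below and 4 within the xHet range. The mean was 2.15 ± 0.543 FPKM in xHomo embryos and 2.35 ± 0.367 FPKM in xHet embryos (SD, n = 10 and 3). On log2(FPKM + 1), the scale of every fold change here, the difference was -0.10 (95% interval -0.45 to 0.25, limma adjusted p = 0.863), and without xHomo embryo 3 it was -0.040 (limma adjusted p = 0.894). As the gene the study concerns, Tet1 thus served as no check of the labels: the transcript was detected in every embryo of both groups, and which exons its fragments came from is not in the table.

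Tet2 (chr3:133126640-133207354, mm9), the family member without a DNA-binding CXXC domain of its own, spread most among the xHomo embryos. It was 1.49, 3.73 and 6.73 FPKM at the lowest, median and highest of the xHomo embryos, against 3.26, 3.66 and 3.61 FPKM in xHet embryos 1 to 3. The lowest was xHomo embryo 3 and the highest xHomo embryo 9, with 5 xHomo embryos above, 3 below and 2 within the xHet range. The mean was 3.75 ± 1.35 FPKM in xHomo embryos and 3.51 ± 0.218 FPKM in xHet embryos (SD, n = 10 and 3), a log2 difference of 0.023 (95% interval -0.47 to 0.52, limma adjusted p = 0.978). Without xHomo embryo 3 this difference was 0.12 (limma adjusted p = 0.743). Its sign turned without xHomo embryo 9 (-0.061, limma adjusted p = 0.933), and also without xHomo embryo 10 or xHet embryo 1 (-0.00012 and -0.018). The SD of log2(FPKM + 1) of Tet2 was 0.42 among xHomo embryos, a value that 10.4% of tested genes exceeded, and 0.30 without xHomo embryo 3, exceeded by 15.1%. Among xHet embryos it was 0.071, exceeded by 68.1% of tested genes.

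Tet3 (chr6:83312367-83391672, mm9) had the highest level of the TET genes. It was 4.8, 9.39 and 11.85 FPKM at the lowest, median and highest of the xHomo embryos, against 8.56, 8.88 and 8.65 FPKM in xHet embryos 1 to 3. In 8 of 10 xHomo embryos it was above every xHet embryo, and xHomo embryos 3 and 9, at 4.8 and 8.51 FPKM, were below. Of all tested genes, 15.3% were likewise above every xHet embryo in at least 8 xHomo embryos, so this count is not particular to Tet3. The mean was 9.27 ± 1.83 FPKM in xHomo embryos and 8.70 ± 0.165 FPKM in xHet embryos (SD, n = 10 and 3). The log2 difference was 0.057 (95% interval -0.31 to 0.42, limma adjusted p = 0.925), and without xHomo embryo 3 it was 0.15 (limma adjusted p = 0.400). The sign turned under TPM rescaling (-0.016). The 3 xHet embryos lay close together, with an SD of 0.024 on the log2 scale, which 95.0% of tested genes exceeded. Without xHomo embryo 3 the SD among xHomo embryos was 0.13, against 0.31 with it, and 80.1% of tested genes then had a larger SD.

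Tdg was higher than any TET gene in FPKM and did not pass either. It was 14.3, 19.1 and 24.7 FPKM at the lowest, median and highest of the xHomo embryos, against 14.4, 13.9 and 18.25 FPKM in xHet embryos 1 to 3. It was above every xHet embryo in 6 xHomo embryos, and in the other 4 it was within the xHet range. Of all tested genes, 34.2% were above every xHet embryo in at least 6 xHomo embryos. The mean was 18.5 ± 3.43 FPKM in xHomo embryos and 15.5 ± 2.37 FPKM in xHet embryos (SD, n = 10 and 3). The log2 difference was 0.23 (95% interval -0.10 to 0.56, limma adjusted p = 0.645), and without xHomo embryo 3 it was 0.26 (limma adjusted p = 0.386).

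**Figure D1:**
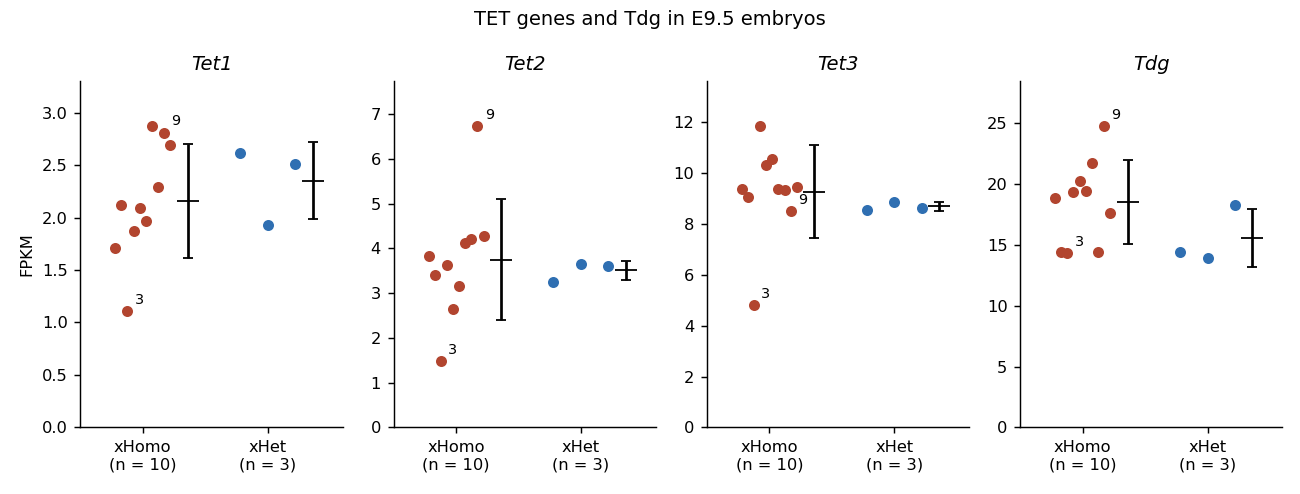
FPKM of the 4 genes in each embryo, with 10 xHomo embryos (red) left of 3 xHet embryos (blue). Bars beside the points give mean and SD, and the numbers 3 and 9 mark xHomo embryos 3 and 9. xHomo embryo 3 was lowest for Tet1, Tet2 and Tet3 at 1.11, 1.49 and 4.8 FPKM, and xHomo embryo 9 was highest for Tet2 and Tdg at 6.73 and 24.7 FPKM.

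None of the 4 genes passed in either direction in limma at an adjusted p of 0.05, where 0.0235% of the 12755 tested genes did. The same held at an unadjusted p of 0.05, where 9.35% of tested genes passed, 7.63% higher and 1.72% lower in xHomo embryos. None had groups that did not overlap, against 2.24% of tested genes, 1.66% higher and 0.58% lower. The median log2 change over all tested genes was 0.046, and 59.7% of them were higher in xHomo embryos.

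The row named Gm9855 in the deposited table was looked at next, chosen after its values were seen. Its FPKM was above that of Tdg in every embryo. Gm9855 was 27.7, 44.1 and 49.5 FPKM at the lowest, median and highest of the xHomo embryos. In xHet embryos 1 to 3 it was 49.5, 45.6 and 43.6 FPKM. It was lowest in xHomo embryo 9, where Tdg was highest. In 4 xHomo embryos it was below every xHet embryo and in 0 above, the opposite side from Tdg. The sum of both genes was 52.4, 62.6 and 68.5 FPKM at the lowest, median and highest of the xHomo embryos, against 63.9, 59.5 and 61.9 FPKM in xHet embryos 1 to 3. With the sum in place of Tdg the log2 difference turned from the higher to the lower side, at -0.029 (limma adjusted p = 0.927). Tdg made up 30.8% ± 7.09 of the sum in xHomo embryos and 25.1% ± 3.79 in xHet embryos (SD, n = 10 and 3), with 47.2% in xHomo embryo 9 as the highest. Across the 10 xHomo embryos Tdg and Gm9855 gave Pearson r = -0.578 (permutation p = 0.0770) and Spearman rho = -0.309 (permutation p = 0.387), and r = -0.636 without the 2 embryos farthest from the Tdg median. As the deposited locus of Gm9855 is that of Tdg, whether its row measures the processed pseudogene or transcripts of the Tdg locus is not known. How the quantification divided fragments between the 2 genes was not tested, so both levels are uncertain.

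**Figure D2:**
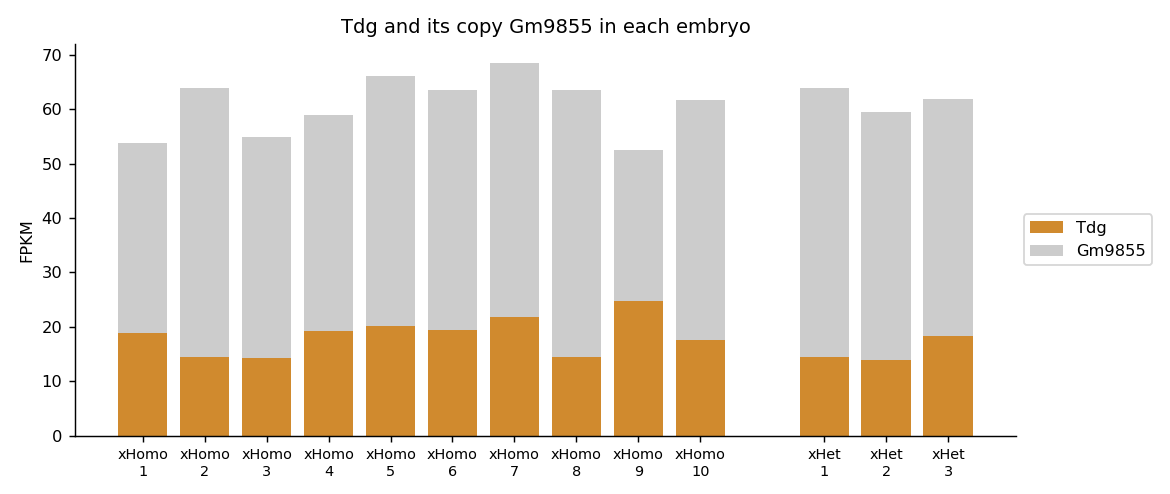
Stacked bars of the FPKM of Tdg (orange) and Gm9855 (grey) in each embryo, xHomo embryos 1 to 10 left of xHet embryos 1 to 3. The sums lie between 52.4 and 68.5 FPKM, and the Tdg part is largest, at 24.7 FPKM, in xHomo embryo 9, where the Gm9855 part is smallest.

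The order of the TET genes was the same in all embryos: Tet3 was above Tet2, and Tet2 above Tet1, in 13 of 13. Within an embryo Tet3 was 3.03 to 6.34 times Tet1 and 1.26 to 3.90 times Tet2, and Tet2 was 1.25 to 2.40 times Tet1. Across embryos the ranges of neighbours in this order overlap, since Tet2 in xHomo embryo 3 was below Tet1 in most embryos and Tet3 in xHomo embryo 3 was below Tet2 in xHomo embryo 9. FPKM is divided by transcript length, so these ratios compare levels per length and depend on the transcript models used. The mean level of Tet1 was above that of 51.6% of the genes in the table, Tet2 of 57.4%, Tet3 of 70.7% and Tdg of 81.8%. The table includes 3691 genes at 0 FPKM in all embryos. Of the tested genes, 88.0% had a mean above that of Tet1, 77.6% above Tet2, 53.4% above Tet3 and 33.1% above Tdg.

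The make-up of the TET transcripts does not change with the scaling of a library, so it was set beside the levels. Of the summed TET FPKM, Tet3 held 47.1% to 68.5% in xHomo embryos, against 58.6% to 61.4% in the xHet group. Tet2 held 17.6% to 37.3% in xHomo embryos, against 22.6% to 25.3% in the xHet group, with 37.3% in xHomo embryo 9 standing well above the next, 26.5% in xHomo embryo 8. Tet1 held 14.2% ± 2.13 in xHomo embryos and 16.1% ± 2.49 in xHet embryos (SD, n = 10 and 3), and 3 xHomo embryos were below and 0 above the xHet range. In xHomo embryo 3 the shares of Tet1, Tet2 and Tet3 were 15.0%, 20.1% and 64.9%, within the range of the other xHomo embryos, although its summed TET FPKM was 7.4. That sum was 14.6 to 18.1 FPKM in the other 9 xHomo embryos and 14.4 to 14.8 FPKM in xHet embryos. Tdg was 0.909 to 1.93 times the summed TET FPKM in xHomo embryos and 0.961 to 1.24 times in xHet embryos, with the highest ratio in xHomo embryo 3. The difference in the mean log2 of this ratio, xHomo minus xHet, was 0.22, and -0.055 with Gm9855 added to Tdg. No test was made on these sums and shares, which describe chosen genes.

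**Figure D3:**
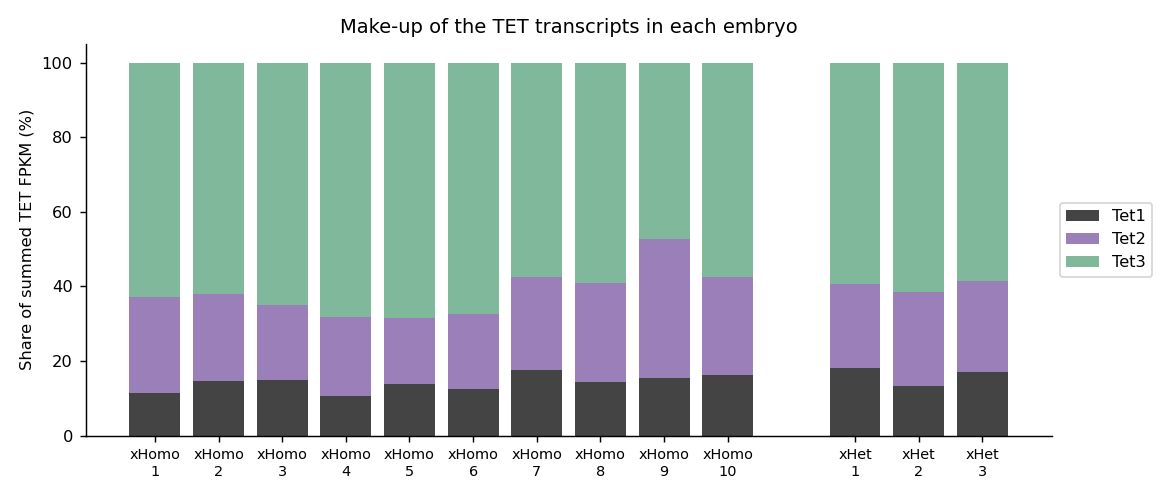
Share of Tet1 (dark grey), Tet2 (purple) and Tet3 (green) in the summed TET FPKM of each embryo, in percent, xHomo embryos left of xHet embryos. Tet3 holds 47.1% in xHomo embryo 9 and at least 57.4% in every other embryo.

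xHomo embryo 3 was low in all 3 TET genes, and transcript length was therefore described beside it. Its Tet1, Tet2 and Tet3 differed from the xHet mean by -0.66, -0.86 and -0.74 on the log2 scale, and its Tdg by -0.10. In the same embryo 22.5%, 14.2% and 18.5% of all tested genes were at least as far below as Tet1, Tet2 and Tet3 in that order. The longest annotated coding transcripts have 14369 bases for Tet1, 9179 for Tet2, 10904 for Tet3 and 3502 for Tdg. Of the 12755 tested genes 93.5% had such a length, and the 652 with at least 8000 bases had a median difference of -0.54 in xHomo embryo 3, against 0.057 for the 2976 with at most 2000 bases. In the other 9 xHomo embryos the median of the long transcripts was -0.040 to 0.21. In the xHet embryos, themselves part of the xHet mean, it was -0.0057 to 0.0028. Of the long-transcript genes, 36.5% differed in xHomo embryo 3 by as much as Tet1 or more in the same direction, Tet1 being the TET gene nearest to the xHet mean. The part of RNA quality in this was not tested.

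**Figure D4:**
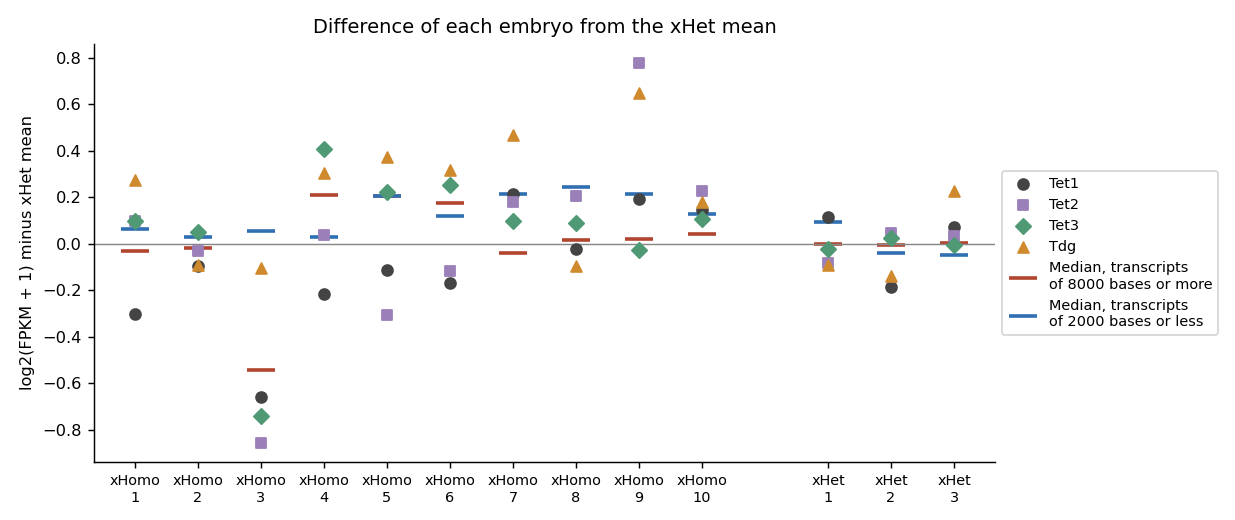
Difference of each embryo from the xHet mean on log2(FPKM + 1) for Tet1, Tet2, Tet3 and Tdg (symbols), with the median of genes with long (red dash) and short (blue dash) transcripts. In xHomo embryo 3 the TET genes lie at -0.66 to -0.86 and the long-transcript median at -0.54, while the short-transcript median is 0.057.

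Sex was another difference between libraries. In the 5 Xist-low xHomo embryos Tet3 was 9.33 to 11.85 FPKM, against 8.56 to 8.88 FPKM in the 3 xHet embryos, which were all Xist-low too, so the groups did not overlap. In that comparison 11.7% of tested genes were higher and 2.02% lower without overlap, and the median log2 change over all tested genes was 0.10. xHomo embryos 3 and 9, where Tet3 was below the xHet embryos, are Xist-high and thus not in that comparison. The log2 difference of Tet3 there was 0.22 (95% interval 0.024 to 0.41) and did not pass (limma adjusted p = 0.226), while its unadjusted limma p was 0.0318, and 16.3% of tested genes were higher at an unadjusted p under 0.05 there. Tet1 was 1.71 to 2.29 FPKM in the Xist-low xHomo embryos against 1.93 to 2.61 FPKM in xHet embryos, a log2 difference of -0.16 (limma adjusted p = 0.386). Tet2 was 2.65 to 4.20 FPKM in the Xist-low xHomo embryos against 3.26 to 3.66 FPKM in the xHet group (limma adjusted p = 0.956). Tdg was 14.4 to 20.2 FPKM in the Xist-low xHomo embryos against 13.9 to 18.25 FPKM in the xHet group (limma adjusted p = 0.341). Among Xist-high embryos no comparison could be made, as all 5 were xHomo, and there Tet3 was 4.8 to 9.44 FPKM and Tet2 1.49 to 6.73 FPKM.

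Whether the members varied together was asked across the 10 xHomo embryos for 6 pairs. The 3 pairs with Tet3 were not computed, because the gap between xHomo embryo 3 and the next was over 0.5 of the range of Tet3. For Tet1 and Tet2 Pearson's r was 0.830 (adjusted p = 0.0151, permutation p = 0.00503). Spearman's rho was 0.721 (adjusted p = 0.0693, permutation p = 0.0231), and Pearson's r was 0.682 without the 2 embryos farthest from the Tet1 median. The relation leaned on xHomo embryos 3 and 9, the lowest and highest for Tet2: without both, r was 0.473 (exact permutation p = 0.234). Of all other tested genes, 3.73% had an r with Tet1 at least as high, and 8.66% had one with Tet2. After median-of-ratios scaling r was 0.759, with a permutation p adjusted over the same 3 pairs of 0.0254. After TPM rescaling r was 0.756, with a permutation p adjusted over the same 3 pairs of 0.0509. The Tet3 pairs could be computed under both scalings, and over all 6 pairs the adjusted permutation p was 0.0509 and 0.102. The Xist-low and the Xist-high embryos were 5 each, too few for a correlation within them.

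**Figure D5:**
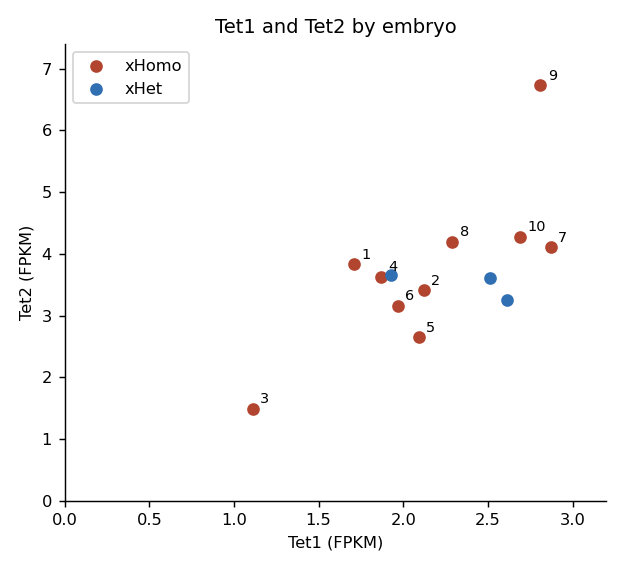
Tet2 against Tet1, both in FPKM, in 10 xHomo embryos (red, numbered) and 3 xHet embryos (blue). xHomo embryo 3 lies at the low end of both genes (1.11 and 1.49 FPKM) and xHomo embryo 9 at the top of Tet2 (6.73 FPKM).

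Tdg gave r = 0.526 with Tet1 (permutation p = 0.117, adjusted p = 0.117) and r = 0.559 with Tet2 (permutation p = 0.0864, adjusted p = 0.117), with rho = 0.467 (permutation p = 0.178, adjusted p = 0.267) and 0.273 (permutation p = 0.445, adjusted p = 0.445). Without the 2 embryos farthest from the x median r was 0.189 and -0.253. With the sum of Tdg and Gm9855 in place of Tdg, the pair with Tet2 turned to r = -0.106 (permutation adjusted p = 0.773). Without xHomo embryo 3 the gap of Tet3 closed, and Tet3 gave r = -0.565 with Tet1 (exact permutation adjusted p = 0.330) and r = 0.019 with Tdg (exact permutation adjusted p = 0.963).

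The genes most like each member over the 13 embryos were named by Pearson r on log2(FPKM + 1), as a description with no test. For Tet1 they were Tnni3, which encodes cardiac troponin I (r = 0.958), Zcchc7 (0.939) and Atad3a (0.919). For Tet2 they were Akap8l (0.981), Hmha1 (0.972) and Ankrd24 (0.968). Akap8l was 9.30 to 48.2 FPKM over the embryos, Hmha1 3.24 to 20.6 FPKM and Ankrd24 0.76 to 5.03 FPKM. For Tet3 they were Ptprg (0.980), Atrnl1 (0.980) and Ints1 (0.974). For Tdg they were Lox, which encodes lysyl oxidase (0.889), Ccdc112 (0.870) and 4632415K11Rik (0.850). Lox was 0.47 to 1.53 FPKM over the embryos, with a mean of 1.03 FPKM, close to the filter of 1 FPKM. Without xHomo embryo 3 the r with Tet3 was 0.907 for Ptprg, 0.925 for Atrnl1 and 0.875 for Ints1, which then ranked 24, 4 and 81 among the genes most like Tet3. Ankrd24 then ranked 11 for Tet2 at 0.934, while Tnni3 stayed the gene most like Tet1 at 0.910.

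Genes that work with or after the TET enzymes were counted in 5 lists, and 0 of their 59 tested members passed in either direction in limma. At an unadjusted p under 0.05, 8 of the 59 passed, all of them higher in xHomo embryos, where 7.63% of all tested genes were higher at that p. Of the 59, 37 were higher and 22 lower in xHomo embryos, with a median log2 change of 0.062. Over all tested genes 59.7% were higher, with a median of 0.046. The genes named below have the smallest limma p of their list, so they do not stand for its other genes. Values with ± are means and SD over 10 xHomo and 3 xHet embryos. Of 12 partners and regulators of TET proteins 10 were higher and 2 lower, with a median log2 change of 0.12. Wt1, a transcription factor that binds TET2, was 3.49 ± 0.439 FPKM in xHomo embryos and 2.42 ± 0.10 FPKM in xHet embryos (limma adjusted p = 0.447). Its groups did not overlap, as for 1 other of the 59 list genes, against 1.66% of all tested genes that were higher without overlap. Cxxc5, a CXXC protein known to bind TET2, was 29.7 ± 8.01 FPKM in xHomo embryos and 21.6 ± 1.01 FPKM in xHet embryos (limma adjusted p = 0.533). Ddb1, part of a ubiquitin ligase that acts on TET proteins, was 214.0 ± 24.1 FPKM in xHomo embryos and 178.8 ± 9.18 FPKM in xHet embryos. Sall4, a zinc finger factor, was 30.4 ± 5.75 FPKM in xHomo embryos and 24.8 ± 2.66 FPKM in xHet embryos.

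Of 15 tested genes for 2-oxoglutarate and cofactor supply 9 were higher and 6 lower, with a median of 0.063. Idh1 and Idh2, the dehydrogenases that make 2-oxoglutarate in cytosol and mitochondria, were 39.2 ± 7.13 and 89.3 ± 9.80 FPKM in xHomo embryos and 30.9 ± 2.05 and 72.0 ± 6.01 FPKM in xHet embryos (limma adjusted p = 0.544 and 0.494). Idh3g, a subunit of the NAD-dependent enzyme, was 59.2 ± 7.94 FPKM in xHomo embryos and 50.4 ± 4.41 FPKM in xHet embryos. Sdhc, a subunit of succinate dehydrogenase, was 93.4 ± 8.65 FPKM in xHomo embryos and 78.8 ± 9.33 FPKM in xHet embryos.

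Of 19 tested base excision repair genes, other glycosylases and Gadd45 genes included, 9 were higher and 10 lower, with a median of -0.0011. Lig1, a DNA ligase, was 64.3 ± 5.42 FPKM in xHomo embryos and 52.5 ± 2.64 FPKM in xHet embryos (limma adjusted p = 0.481). Parp1, which senses strand breaks, was 85.7 ± 9.70 FPKM in xHomo embryos and 70.1 ± 3.99 FPKM in xHet embryos. Gadd45b, proposed as an adaptor in demethylation, was 1.89 ± 0.589 FPKM in xHomo embryos and 1.26 ± 0.154 FPKM in xHet embryos. Neil3, a glycosylase, was 8.20 ± 1.95 FPKM in xHomo embryos and 9.67 ± 0.465 FPKM in xHet embryos.

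Of 9 tested readers of modified cytosine 6 were higher and 3 lower, with a median of 0.089. Mbd2 was the other list gene higher without overlap, where 1.66% of all tested genes were. Mbd2 and Mbd3, of the methyl-CpG binding domain family, were 9.01 ± 1.20 and 82.4 ± 9.13 FPKM in xHomo embryos and 7.07 ± 0.444 and 69.2 ± 2.09 FPKM in xHet embryos (limma adjusted p = 0.494 and 0.518). Thyn1 was 27.3 ± 3.06 FPKM in xHomo embryos and 24.9 ± 4.01 FPKM in xHet embryos. Of 4 tested methylating enzymes and cofactors, Dnmt1, Dnmt3a and Uhrf1 were on the higher and Dnmt3b on the lower side, with a median of 0.14. The maintenance methyltransferase Dnmt1 was 59.5 ± 11.1 FPKM in xHomo embryos and 51.9 ± 2.05 FPKM in xHet embryos, and Dnmt3b, a de novo methyltransferase, 8.61 ± 1.17 FPKM in xHomo embryos and 9.65 ± 0.26 FPKM in xHet embryos (limma adjusted p = 0.729 and 0.667).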

How the data were processed

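Total RNA of whole embryos was taken through poly(A) isolation and a directional library kit, per the labels' protocols. The authors deposited FPKM values per gene and embryo with loci on mm9, and bcl2fastq 1.8.2, TopHat and Cufflinks were used per the submitters' processing notes; neither the other versions nor the annotation, filters or use of strand is stated in those notes or labels. FPKM holds no read count, so depth is unknown and no counting interval is given. Groups came from the sample titles. Litter, batch and origin of the embryos are not labelled, so p-values measure only the spread between these samples, which may be in part technical. No 2 columns were identical, and correlations between embryos ran from 0.904 to 0.953.

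Genes with a mean of at least 1 FPKM over 13 embryos (12755 of 23217) were fitted on log2(FPKM + 1) with limma 3.58.1 in R 4.3.3 (empirical Bayes with a trend, two-sided, Benjamini-Hochberg adjustment over all tested genes). Correlations used 100000 permutations of pairings, exact enumeration under 10 embryos, adjustment over the pairs computed, and no value where a gap exceeded 0.5 of a gene's range. Sequences and transcript lengths came from GENCODE vM21 and RefSeq tables on GRCm38 and were aligned with Biopython 1.88; other steps used Python 3.11.15, pandas 2.3.3, numpy 2.4.6, scipy 1.17.1 and matplotlib 3.10.9. The limma and correlation steps were tested on simulated data.

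The members and lists were chosen with earlier results of these data known. Named are the 4 members, the 3 genes most like each in Pearson r over 13 embryos, up to 4 genes of each list with the smallest limma p, Xist and Y-linked genes; 1 gene that this rule names is counted in its list but is not reported here. Gm9855, its sum with Tdg, Glt8d2, the length classes the pair without xHomo embryos 3 and 9 and the adjustment of rescaled pairs over the 3 reported ones were chosen after values were seen. Alternatives were other pseudocounts (0.1 and 5), no filter, 3 rescalings, an Xist covariate, Xist-low embryos only, array weights, no trend, an exact permutation test, a replicate block and leaving out each embryo.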

Additional observations from a re-analysis of the deposited data

Results flagged for a closer look

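An embryo is given here where its gap to the nearest of the other xHomo embryos, divided by the range of the 10, exceeded Dixon's 95% critical value of 0.466. Of 45 quantities checked 12 met this. The quantities are not independent of each other, as they include sums, shares and ratios of the members. They also include genes picked for their likeness to a member in these embryos, among them Atad3a, Ptprg, Atrnl1 and Ints1. The count is therefore not set against a rate by chance. xHomo embryo 3 was the low one for Tet3 (4.8 FPKM), summed TET (7.4 FPKM), Atad3a (26.1 FPKM), Ptprg (4.16 FPKM), Atrnl1 (4 FPKM) and Ints1 (8.30 FPKM), and the high one for the log2 ratio of Tdg plus Gm9855 to summed TET (2.89). xHomo embryo 9 was the high one for Tet2 (6.73 FPKM), the Tet2 share of summed TET FPKM (37.3%), the Tdg share of Tdg plus Gm9855 (47.2%) and Glt8d2 (1.73 FPKM), which shares the deposited locus of Tdg, and the low one for the Tet3 share (47.1%). On the log2 scale Tet3 met this as well and Tet2 did not.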

How the results depend on the processing

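None of the 4 genes passed in limma under any alternative run, and none passed the exact permutation test of each gene's group difference (two-sided p 0.178 to 0.913). Outside the fits without 1 embryo, the log2 change ran from -0.35 to 0.050 for Tet1, -0.26 to 0.11 for Tet2, -0.20 to 0.22 for Tet3 and -0.029 to 0.24 for Tdg. The sign of Tet2 turned with median-of-ratios scaling (-0.015), TPM rescaling (-0.053), quantile normalization (-0.0052), the Xist covariate (-0.077), Xist-low embryos only (-0.015) and the replicate block (-0.26), that of Tet3 with TPM rescaling (-0.016) and the replicate block (-0.20), that of Tet1 with array weights (0.050), and that of Tdg with Gm9855 added (-0.029). Without 1 embryo Tet2 ran from -0.061 to 0.12, Tet1 from -0.20 (without xHet embryo 2) to -0.040 (without xHomo embryo 3), Tet3 from 0.018 (without xHomo embryo 4) to 0.15 (without xHomo embryo 3) and Tdg from 0.16 (without xHet embryo 2) to 0.34 (without xHet embryo 3). The number of genes passing, 3 as reported, was 11 with no filter (3 higher, 8 lower), 5 with TPM rescaling, 5 with quantile normalization, 1 with the Xist covariate, 8 in Xist-low embryos (7 higher, 1 lower), 2779 with array weights (2371 higher, 408 lower), 1 (lower) with the replicate block, and 1 to 11 without 1 embryo (1 without xHet embryo 2 or 3, 5 without xHomo embryo 2, 11 without xHomo embryo 3). Numbers 1 to 3 occur in both groups, but deviations of same-numbered embryos correlated at -0.065, -0.040 and -0.038, so the block pairs by number only. xHomo embryos with higher numbers are alone in their blocks and add nothing to the difference. The block fit thus sets only embryos 1 to 3 of each group against each other, xHomo embryo 3 among them. The low ends for Tet1, Tet2 and Tet3 (-0.35, -0.26 and -0.20) came from it. The r of Tet1 with Tet2 was 0.759 after median-of-ratios scaling, which passed over the 3 pairs reported (permutation adjusted p = 0.0254) and not over the 6 pairs then computed (0.0509), 0.756 after TPM rescaling, which passed over neither (0.0509 and 0.102), 0.473 without xHomo embryos 3 and 9, and 0.828 to 0.861 in the 7 runs without 1 embryo that could be computed; without xHomo embryo 1, 3 or 9 a gap over 0.5 of the range left no value. The r of Tet2 with Tdg turned to -0.106 with Gm9855 added. The untested difference in the log2 ratio of Tdg to summed TET FPKM then turned from 0.22 to -0.055. The cause of these changes was not tested. The untested difference in summed TET FPKM, 0.611, was -0.017 after median-of-ratios scaling, -0.299 after TPM rescaling and 0.291 to 1.47 without 1 embryo. The untested difference in the Tet2 share, 0.174 percentage points, ran from -1.27 (without xHomo embryo 9) to 0.919, and that in the Tet1 share, -1.92, from -3.33 (without xHet embryo 2) to -0.950 (without xHet embryo 1). As depth is unknown, no counting error can be given, also not for Tet1, the lowest member.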
